A study of Mus musculus with 10 samples.

Results

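Immediate early genes and circadian clock genes were examined in the brains of Cin85-/- mice. The members were the probes whose annotation gives exactly 1 gene symbol from a list of 53 names. Because Cyr61 and Ccn1 are symbols of the same gene, the names stand for 52 genes. Of these, 35 genes had a probe, with 51 probes among the 14030 probes of the array that carry 1 symbol. There were 20 immediate early genes with 28 probes and 15 clock genes with 23 probes. Fosl2, Jund, Egr2, Egr3, Egr4, Npas4, Arc, Bdnf, Sgk1, Ier5, Dusp5, Clock, Arntl, Npas2, Cry2, Ciart and Rorb had no single-symbol probe in the annotation used and were not analysed here. All 3 activators of the clock on the list, Clock, Arntl and Npas2, are among these, so only its repressors, nuclear receptors, output factors and kinases were read.

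The mutants were 5 male Cin85-/- mice, 15 weeks old, and the control was RNA of male wt mice of the same age, combined in 1 brain pool. The pool is described as 5 mice in the design and by its animal numbers, but as 6 in the labelling protocol. Each mutant was hybridised on 2 arrays against the pool, with Cy5 and Cy3 exchanged, which gave 10 arrays. The orientation of an array is named below after the dye of the mutant, Cy5 or Cy3. Nothing in the labels gives strain background, allele construction or the hour of dissection. Titles name brain, while the mutant's source name also has Kdn, an abbreviation that is not explained. The ratio files hold no level of either channel, so tissue markers could be read only as ratios.

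Immediate early genes are transcribed within minutes of synaptic activity, growth factors or stress, without new protein synthesis, and many encode transcription factors. In the brain their RNA is widely used as a sign of recent neuronal activity. The circadian clock is a transcriptional loop in which CLOCK or NPAS2 pairs with BMAL1 (Arntl) to activate Per and Cry genes, whose proteins then repress that pair. REV-ERB and ROR nuclear receptors drive a second arm, and Dbp, Tef and Hlf carry the rhythm to output genes. Per1 is also induced by activity and by glucocorticoids.

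Promoter sequence was available from RefSeq (GRCm38.p6) for 45 of the 52 genes, of which 30 were on the array. Each window runs from 250 bases before to 50 bases after a transcription start. The core of the cAMP response element, TGACG, which is bound by CREB, was found on either strand in a window of 19 of 27 immediate early genes (70.4%) and of 5 of 18 clock genes (27.8%). It was present in 23.0% of all 27025 genes and in 20.8% of all 32851 windows. The full element TGACGTCA, which contains that core, was found in Btg2, Dusp1 and Hlf, and in 2.03% of all genes. The E-box CACGTG, bound by the CLOCK and BMAL1 pair, was found in 5 of the 18 clock genes, Bhlhe41, Ciart, Cry1, Per1 and Tef. It was also found in 6 of the 27 immediate early genes, and in 8.09% of all genes. The D-box TTATGNAA, bound by Dbp, Tef and Hlf, was found in Per1, Per3 and Timeless, and in 3.99% of all genes. The AP-1 site TGAGTCA was found in 0 of the 45 genes and in 5.95% of all genes. Genes with several windows had more chances to hold a motif, and a match is a description of letters and not of binding. The CArG box was found in Dusp5 and Egr2, and in 1.81% of all genes. The nuclear receptor core AGGTCA was found in 4 of 27 immediate early genes (14.8%) and 4 of 18 clock genes (22.2%), near its share of 18.1% of all genes.

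4 promoters are printed because they show these elements in genes whose ratios are given below. Capitals mark the TGACG core in Nr4a1 (read as CGTCA, since all of its sites lie on the opposite strand), the full cAMP response element in Btg2 and Hlf, and the core, the E-box and the D-box in Per1. Each is written 5′ to 3′ on the strand of its gene. The windows lie at chr15:101266596-101266895 on the plus strand (Nr4a1), chr1:134079106-134079405 on the minus strand (Btg2), chr11:90390868-90391167 on the minus strand (Hlf) and chr11:69098699-69098998 on the plus strand (Per1), and the last 50 bases are transcribed.
Nr4a1: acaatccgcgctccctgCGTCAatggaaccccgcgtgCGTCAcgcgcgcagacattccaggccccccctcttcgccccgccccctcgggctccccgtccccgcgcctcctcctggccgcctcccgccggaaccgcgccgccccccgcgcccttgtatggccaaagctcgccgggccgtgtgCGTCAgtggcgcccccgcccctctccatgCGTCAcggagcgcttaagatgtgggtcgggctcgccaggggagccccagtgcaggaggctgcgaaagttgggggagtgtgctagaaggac
Btg2: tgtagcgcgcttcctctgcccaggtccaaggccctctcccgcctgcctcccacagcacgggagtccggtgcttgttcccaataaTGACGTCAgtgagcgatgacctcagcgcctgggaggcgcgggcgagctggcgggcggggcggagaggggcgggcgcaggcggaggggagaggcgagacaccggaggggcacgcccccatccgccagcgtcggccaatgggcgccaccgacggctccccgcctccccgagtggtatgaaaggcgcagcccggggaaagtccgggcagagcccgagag
Hlf: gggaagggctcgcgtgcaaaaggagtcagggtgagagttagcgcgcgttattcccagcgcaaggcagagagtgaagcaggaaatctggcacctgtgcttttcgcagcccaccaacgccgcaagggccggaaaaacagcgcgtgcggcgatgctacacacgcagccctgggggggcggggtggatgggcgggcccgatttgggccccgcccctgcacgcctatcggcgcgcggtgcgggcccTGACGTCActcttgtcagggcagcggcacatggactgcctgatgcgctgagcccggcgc
Per1: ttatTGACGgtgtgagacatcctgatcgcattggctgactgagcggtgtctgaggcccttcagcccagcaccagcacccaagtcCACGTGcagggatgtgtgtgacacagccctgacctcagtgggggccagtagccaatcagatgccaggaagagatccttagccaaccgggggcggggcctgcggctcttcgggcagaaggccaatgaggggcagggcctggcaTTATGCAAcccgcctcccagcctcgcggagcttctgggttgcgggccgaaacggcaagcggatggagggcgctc

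The values are the authors' log2 ratios, centred on the median of each array. No label states which channel was the numerator, or whether columns of the Cy3 orientation had their sign exchanged before deposit. Signs are therefore those of the deposited scale and name no sample as higher. The pair mean is the mean of the 2 arrays of a mouse. The dye term is the value in the Cy5 orientation minus that in the Cy3 orientation, divided by 2. With signs already exchanged, the pair mean measures mutant against pool and the dye term measures dye bias. Without that step, the roles are exchanged. Both were tested against 0 over the mice with limma, on all 16939 probes that had both arrays in at least 4 mice, with Benjamini-Hochberg adjustment over all of them. Since all wt RNA was in 1 pool, variation among wt mice does not enter the test. In whole brain RNA, fewer cells of a type and less RNA per cell cannot be told apart.

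The arrays held between 16816 and 19424 values each. Extreme ratios, of size 16.4 to 17.6 where no other exceeded 9.20, occurred at 65 to 264 probes of each array, and their sign was positive on all 5 arrays in the Cy5 orientation and negative on all 5 in the Cy3 orientation. These are called capped ratios, and 4 of the 1024 belonged to members. The array of mouse 3 in the Cy3 orientation stood apart. It held the fewest values and the most capped ratios, and its Spearman correlation with the other arrays lay between -0.07 and 0.06. Among the remaining 9 arrays the correlation was 0.17 to 0.41 between arrays of the same dye orientation and -0.42 to -0.14 between arrays of opposite orientation. The targeted gene, Sh3kbp1, averaged 0.0082 ± 0.14 as pair mean and 0.12 ± 0.089 as dye term (SD, n = 5) on its tested probe, with adjusted p of 0.989 and 0.442 by limma. The tested probe thus showed no difference that passed under either reading, and the other of its 2 probes was not tested. Which exons the tested probe covers was not determined.

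No member of either class passed the test when read as pair means. Of the 37 member probes that were tested, from 16 immediate early and 12 clock genes, 0 passed an adjusted p of 0.05 by limma, against 0% of all probes. At an unadjusted p under 0.05 there were 0 of 37 member probes, against 3.73% of all probes. The adjusted p of the members lay between 0.911 and 0.991. Only 1 of the 32 member probes with a complete set of mice kept a single sign throughout, against 7.01% of all such probes. For 30 of the 37 probes the 95% interval of the pair mean stayed inside 2-fold, and for 23 inside 1.5-fold. The interval of the dye term, defined above, did so for 30 and 16 of the 37. A larger difference remains possible for the rest under each reading at this number of mice.

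**Figure D1:**
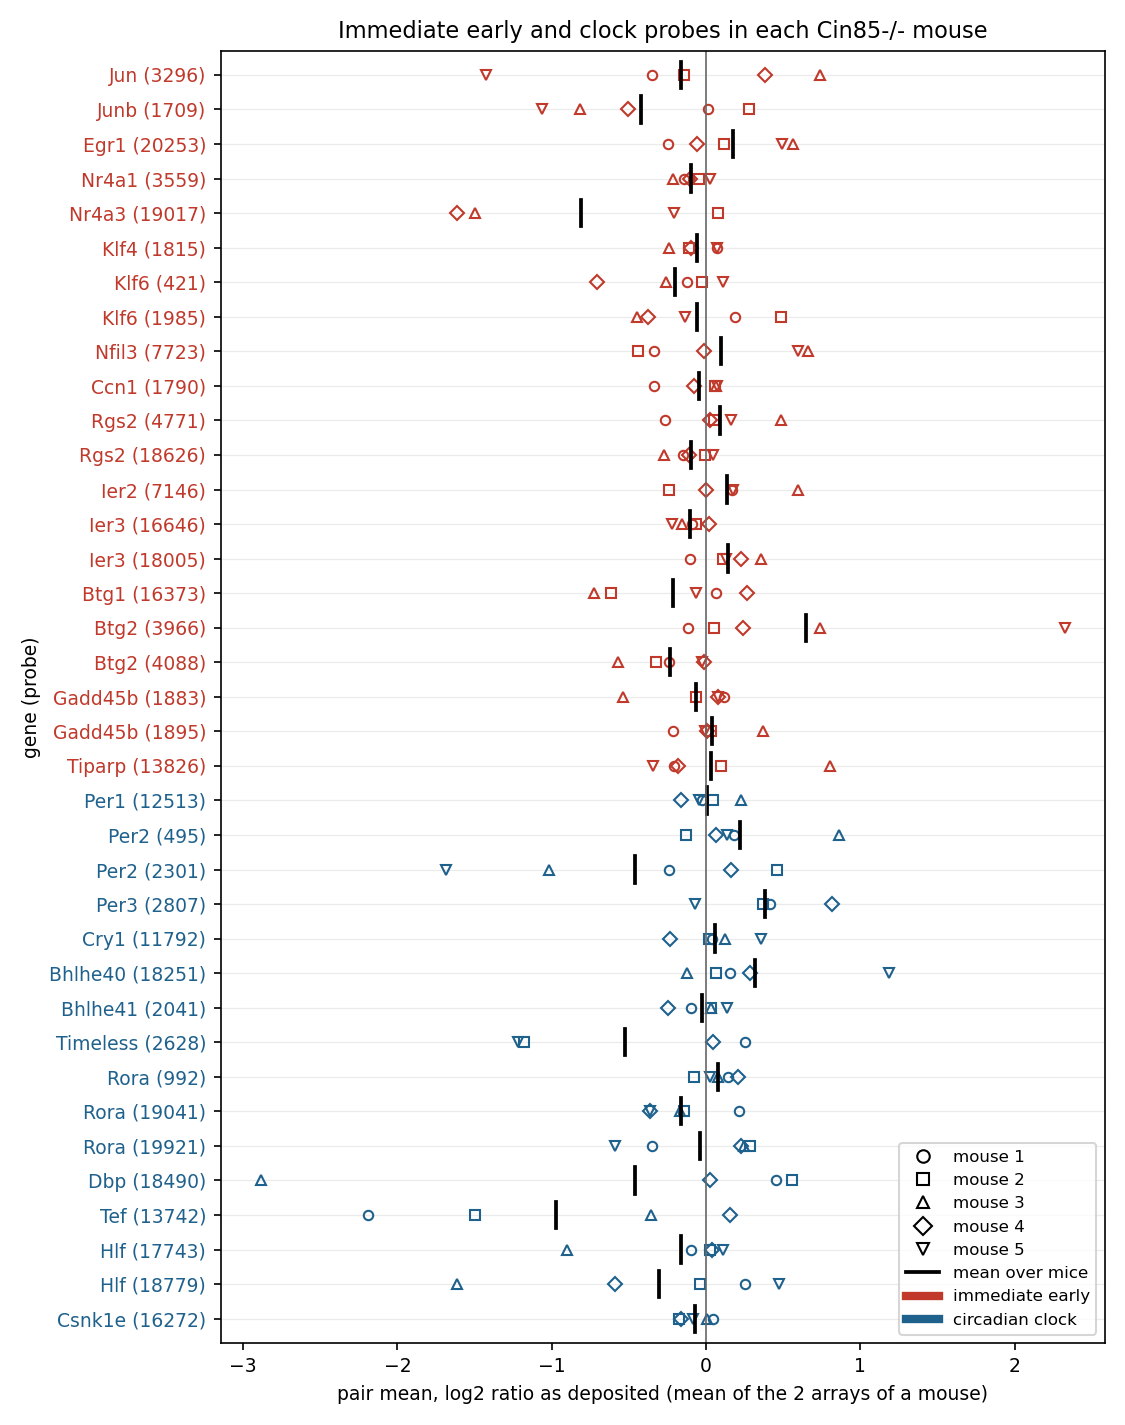
Pair mean log2 ratio (x axis) of each tested member probe (rows, with gene and probe number), with 1 symbol per mouse and a black bar at the mean over mice. Red rows are immediate early genes and blue rows are clock genes; only the second Btg2 probe, 4088, lies on the same side of 0 in all 5 mice, and the widest rows belong to Dbp, Btg2 probe 3966 and Tef.

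Among the transcription factors of the AP-1 family, Junb had pair means of 0.01, 0.28, -0.82, -0.51 and -1.06 in mice 1 to 5. Mice 3, 4 and 5 were negative and the other two were near or above 0. The mean was -0.42 ± 0.56 (SD, n = 5), with a limma adjusted p of 0.911. Jun gave a mean of -0.16 ± 0.83 (SD, n = 5) on probe 3296, where the array of mouse 5 in the Cy5 orientation alone read -5.23. Without mouse 5 the Jun mean was 0.16. Fos, an AP-1 subunit widely used as a marker of neuronal activity, was read on 5 of 10 arrays, too few for the test. Its values were 1.11, -0.78 and 1.58 in the Cy5 orientation, in mice 1, 3 and 5, and -1.63 and -1.23 in the Cy3 orientation, in mice 2 and 3. Only mouse 3 had both arrays for Fos, and both were negative. The Fosb probe had 6 values, of which 1 was a capped ratio, -16.517 as deposited, and Atf3, a stress-induced partner of Jun, had 5 values between -2.67 and 1.84. The other 2 Jun probes, with 5 and 7 values, were not tested either.

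Egr1, a zinc finger factor induced by synaptic activity, had pair means of -0.25, 0.12, 0.57, -0.06 and 0.49 in mice 1 to 5. Positive and negative mice were mixed, and the mean was 0.17 ± 0.35 (SD, n = 5), with a 95% interval from -0.19 to 0.54 by limma. Nr4a1, an orphan nuclear receptor of the first wave of induction whose promoter is printed above, gave -0.14, -0.05, -0.21, -0.10 and 0.02. These values were among the tightest of the class, with a mean of -0.096 ± 0.090 (SD, n = 5) and an interval from -0.31 to 0.12. Its relative Nr4a3 had 0.08, -1.50, -1.61 and -0.21 in mice 2 to 5. The mean of -0.81 ± 0.87 (SD, n = 4) had the smallest unadjusted p of the class (adjusted p = 0.911 by limma), but in mouse 3 the arrays read -3.68 in the Cy5 orientation and 0.68 in the Cy3 orientation. Klf4 averaged -0.062 ± 0.13 and Klf6 -0.20 ± 0.31 and -0.058 ± 0.39 on its 2 probes (SD, n = 5 each). Nfil3, which represses D-box genes and is also counted among clock outputs, averaged 0.095 ± 0.51 (SD, n = 5).

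Effectors and feedback regulators had gene values between -0.22 and 0.21. Ccn1 (Cyr61), a secreted matrix-associated protein, averaged -0.045 ± 0.18, and Rgs2, which switches off Gq signalling, 0.092 ± 0.27 and -0.099 ± 0.13 on its 2 probes (SD, n = 5 each). Ier2 averaged 0.14 ± 0.31, and Ier3 -0.10 ± 0.090 and 0.14 ± 0.17 (SD, n = 5 each). Of the antiproliferative BTG genes, Btg1 averaged -0.22 ± 0.43 (SD, n = 5). Btg2 had -0.24 ± 0.23 on probe 4088, negative in all 5 mice, and 0.65 ± 0.99 on probe 3966 (SD, n = 5 each), where mouse 5 read 2.32 and the mean without it was 0.23. Gadd45b, a stress-induced gene with a part in DNA demethylation, averaged -0.065 ± 0.27 and 0.038 ± 0.21, and Tiparp, an ADP-ribosyltransferase, 0.034 ± 0.46 (SD, n = 5 each). Dusp1, the phosphatase that shuts off MAP kinases, had 5 values on its probe, 2 of them capped ratios of opposite sign (17 and -17.374 as deposited), and was not tested.

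Of the clock repressors, Per1 had pair means of -0.03, 0.05, 0.23, -0.16 and -0.05 in mice 1 to 5. Of all tested member probes it was nearest to 0, at 0.0072 ± 0.14 (SD, n = 5), with an interval from -0.23 to 0.24 by limma. Per2 had 0.18, -0.13, 0.86, 0.06 and 0.13 on probe 495, but -0.24, 0.46, -1.02, 0.16 and -1.68 on probe 2301. The 2 probes thus had opposite signs in 4 of 5 mice, and their means were 0.22 ± 0.38 and -0.46 ± 0.88 (SD, n = 5 each). Per3 had 0.42, 0.37, 0.82 and -0.07 in mice 1, 2, 4 and 5, with a mean of 0.38 ± 0.36 (SD, n = 4) and a limma adjusted p of 0.911. Cry1 averaged 0.061 ± 0.21 (SD, n = 5). Bhlhe40 and Bhlhe41, which encode the repressors DEC1 and DEC2, averaged 0.31 ± 0.51 and -0.028 ± 0.15 (SD, n = 5 each), where Bhlhe40 read 1.19 in mouse 5 and had a mean of 0.096 without it. Timeless, the homologue of a fly clock gene that acts at the replication fork in mammals, averaged -0.53 ± 0.78 (SD, n = 4).

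The PAR bZIP output factors Dbp, Tef and Hlf averaged below 0 as pair means on every tested probe, and Dbp and Tef had the widest spread of the clock genes. As dye terms they had no common sign. Dbp had 0.044 ± 0.67 and Tef 0.39 ± 1.45 (SD, n = 4 each), while the Hlf probes had -0.15 ± 0.31 and -0.88 ± 1.37 (SD, n = 5 each). Dbp, a factor with a strong daily rhythm, had pair means of 0.45, 0.56, -2.89 and 0.02 in mice 1 to 4. Mouse 3 alone was far below the others, at -2.51 in the Cy5 orientation and -3.26 in the Cy3 orientation, and both of its arrays read low. The mean was -0.46 ± 1.63 (SD, n = 4), and 0.35 without mouse 3. Both Hlf probes were also negative on both arrays of mouse 3, with pair means of -0.90 on probe 17743 and -1.61 on probe 18779, against -0.10, 0.03, 0.04 and 0.11 and against 0.25, -0.04, -0.59 and 0.47 in mice 1, 2, 4 and 5. The Hlf means were -0.16 ± 0.42 and -0.30 ± 0.83 (SD, n = 5 each), and 0.02 on both probes without mouse 3. Of all probes with both arrays in mouse 3, 6.42% were negative on both with a pair mean under -0.9. Among members these were 4 of 35, namely Dbp, both Hlf probes and Per2 probe 2301. In the other mice the share of all probes was 0.837% to 2.81%. This pattern was picked after the values were seen and rests partly on the array that stood apart. The cut of -0.9 lies just beside the value of Hlf probe 17743, -0.902, and both Hlf probes belong to 1 gene. The count of members is therefore a description, and no contrast with the share of all probes is drawn from it.

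Tef, which binds the same D-box, had -2.19, -1.50, -0.36 and 0.16 in mice 1 to 4 on probe 13742, with a mean of -0.97 ± 1.07 (SD, n = 4) and a limma adjusted p of 0.911. The 2 arrays of a mouse differed widely there, with -3.07 and 0.07 in mouse 2 and 1.29 and -2.00 in mouse 3. Tef probe 8936, with both arrays in 3 mice, was not tested and had -0.637, -0.695 and 1.144 in mice 2, 3 and 5. Rora, a nuclear receptor that activates Arntl, averaged 0.075 ± 0.11, -0.16 ± 0.24 and -0.036 ± 0.41 on its 3 probes (SD, n = 5 each). Csnk1e, a casein kinase that phosphorylates PER proteins, averaged -0.073 ± 0.099 (SD, n = 5). Nr1d1 and Nr1d2, which encode the REV-ERB repressors, and Csnk1d had too few paired values to be tested. The 2 Nr1d1 probes had 3 and 4 values and were never read on both arrays of a mouse except in mouse 4 on probe 16681, at 2.22 in the Cy5 orientation and -0.30 in the Cy3 orientation. Nr1d2 had 6 values, of which 5 were negative, down to -5.25, and the 2 Csnk1d probes had 6 and 5 values between -1.98 and a capped ratio, 16.486 as deposited.

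The difference between the classes as pair means was within the spread between mice. The 16 immediate early genes split into 6 positive and 10 negative (median -0.029), and the 12 clock genes into 4 positive and 8 negative (median -0.057). Over all 8711 genes, 4289 lay above 0 and 4422 below, around a median of -0.0033. The median of the immediate early genes in mice 1 to 5 was -0.14, 0.0024, 0.073, -0.050 and 0.029, and that of the clock genes 0.044, 0.028, -0.036, 0.023 and -0.061. The immediate early median was above the clock median in 2 of 5 mice, and the mean difference was -0.017 ± 0.12 (SD, n = 5 mice). The difference between the medians of the gene means had the opposite sign, 0.028, and both are smaller than the spread between mice. Median SDs over mice were 0.33 for the immediate early genes, 0.37 for the clock genes and 0.32 for all genes, and median sizes of the mean were 0.11, 0.18 and 0.11.

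**Figure D2:**
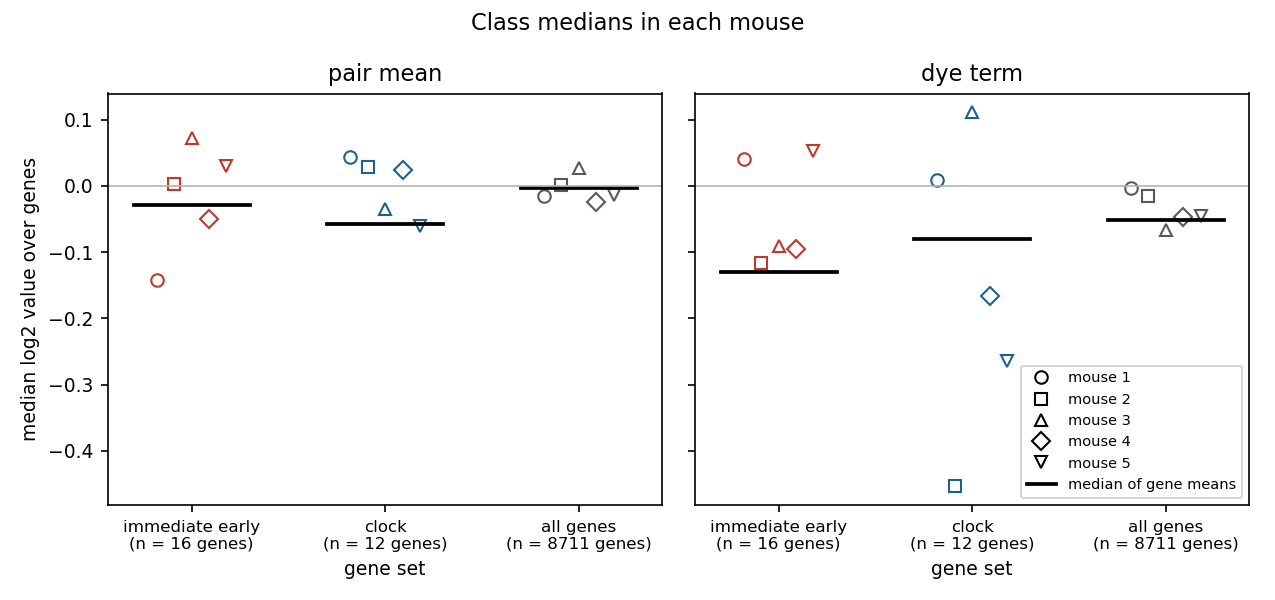
Median log2 value over genes (y axis) of the immediate early genes, the clock genes and all genes tested, with 1 symbol per mouse and a black bar at the median of the gene means, for the pair mean (left) and the dye term (right). The pair means of both classes straddle 0, while the clock medians of the dye term spread from -0.45 in mouse 2 to 0.11 in mouse 3.

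Read as dye terms, several members had the same sign in every mouse, as did many other probes of the array. Of the 32 member probes measured in all 5 mice, 12 had dye terms of 1 sign, 5 positive and 7 negative, against 30.5% of all such probes. At an unadjusted p under 0.05 there were 9 of 37 member probes, 4 positive and 5 negative, against 27.6% of all probes, so the members' shares were near the background. None passed an adjusted p of 0.05 by limma, against 0% of all probes, and the smallest among the members was 0.0988, a value that 702 probes share as the smallest of the array. For 25 of the 37 member probes (67.6%) the means of the 2 dye orientations had opposite signs, against 70.8% of all probes.

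Bhlhe41 was the clearest of these members. Its probe read -0.39, -0.43, -0.87, -1.01 and -0.75 in mice 1 to 5 in the Cy5 orientation, and 0.19, 0.50, 0.94, 0.52 and 1.02 in the Cy3 orientation. The orientations did not overlap, and the dye term was -0.66 ± 0.27 (SD, n = 5), with a limma adjusted p of 0.0988. By the p of the dye term, Bhlhe41 ranked 306 of all 16939 tested probes. The share of all probes whose orientations do not overlap was not counted, so non-overlap here and below marks no member as unusual. For Bhlhe41 the limma adjusted p was 0.0497 after scaling between arrays, where 1.52% of all probes passed, and it lay between 0.00535 and 0.273 over the alternatives run. In fits with the mouse as a random block, 4 of 37 member probes passed with 10 arrays, against 12.1% of all probes. Without the array that stood apart 11 of 37 passed, against 25.5% of all probes. Bhlhe41 was among them both times, and both counts were near the background. Bhlhe40, its close relative, had a dye term of -0.34 ± 0.32 (SD, n = 5), negative in all 5 mice. Per1 had -0.22 ± 0.16 (SD, n = 5), with 1 positive mouse. Per3 read 0.42, -1.47, -1.29, -0.57 and -0.38 in mice 1 to 5 in the Cy5 orientation, and 0.41, 2.21, 2.21 and 0.23 in mice 1, 2, 4 and 5 in the Cy3 orientation. Its dye term was near 0 in mouse 1 and negative in the other mice, at -0.88 ± 0.87 (SD, n = 4, adjusted p = 0.177 by limma), or -0.56 without mouse 2. Cry1 ran the other way, with 0.49, 0.05, 0.29, 0.46 and 0.95 in the Cy5 orientation and -0.41, -0.01, -0.05, -0.92 and -0.24 in the Cy3 orientation. Here too the orientations did not overlap, and the dye term was 0.39 ± 0.28 (SD, n = 5, adjusted p = 0.137 by limma). Rora probe 992 read 0.43, 0.29, 0.09, 1.02 and 0.54 in the Cy5 orientation and -0.15, -0.46, 0.07, -0.61 and -0.49 in the Cy3 orientation. Its dye term was positive in all 5 mice but close to 0 in mouse 3, at 0.40 ± 0.30 (SD, n = 5, adjusted p = 0.137 by limma), while its other probes had -0.18 ± 0.35 and 0.14 ± 0.60 (SD, n = 5 each). The dye terms of Per2 were -0.094 ± 0.29 on probe 495 and 0.24 ± 0.32 on probe 2301 (SD, n = 5 each). Timeless had 0.40 ± 1.43 (SD, n = 4) and Csnk1e -0.21 ± 0.48 (SD, n = 5).

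Of the immediate early genes, Egr1 read 0.16, 0.56, 0.63, 0.75 and 1.12 in the Cy5 orientation, and -0.66, -0.33, 0.51, -0.86 and -0.14 in the Cy3 orientation. The orientations overlapped only through mouse 3, and the dye term was 0.47 ± 0.28 (SD, n = 5, adjusted p = 0.107 by limma). Ccn1 had -0.16, 0.38, 0.53, 0.50 and 0.34 in the Cy5 orientation and -0.52, -0.27, -0.40, -0.66 and -0.20 in the Cy3 orientation. All 5 dye terms were positive, with a mean of 0.37 ± 0.16 (SD, n = 5, adjusted p = 0.108 by limma). The second Ccn1 probe, not tested, was positive on 3 of 4 arrays in the Cy5 orientation and negative on all 3 in the Cy3 orientation. Tiparp had the smallest adjusted p of the class, with -0.75, -0.18, 0.52, -0.65 and -0.81 in the Cy5 orientation and 0.34, 0.37, 1.09, 0.29 and 0.12 in the Cy3 orientation. Its dye term was negative in all 5 mice, at -0.41 ± 0.12 (SD, n = 5, adjusted p = 0.102 by limma).

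Ier3 probe 16646 had -0.20, -0.30, -0.54, -0.43 and -0.65 in the Cy5 orientation and 0.01, 0.17, 0.23, 0.46 and 0.21 in the Cy3 orientation, without overlap. The dye term was -0.32 ± 0.15 (SD, n = 5, adjusted p = 0.125 by limma), but on Ier3 probe 18005 it was 0.049 ± 0.096 (SD, n = 5). Btg2 probe 3966 read -0.21, -0.13, -0.48, -0.21 and -0.10 in the Cy5 orientation and -0.01, 0.23, 1.95, 0.69 and 4.75 in the Cy3 orientation. The spread came from the Cy3 orientation, and the dye term was -0.87 ± 0.97 (SD, n = 5, adjusted p = 0.177 by limma). Without mouse 5 this dye term was -0.49. The remaining dye terms of tested immediate early probes lay between -1.05 (Jun, with an SD of 1.60) and 0.28 (Rgs2 probe 4771, with an SD of 0.22). As dye terms the class medians were -0.13 over the 16 immediate early genes and -0.081 over the 12 clock genes, against -0.051 over all genes. The sign of the clock median was not stable. It was 0.044 with at least 3 mice required, 0.044 with Nfil3 counted as a clock gene, and -0.21 with all 5 mice required. The immediate early median exceeded the clock median in 4 of 5 mice, by 0.11 ± 0.22 on average (SD, n = 5 mice), which is within the spread between mice.

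**Figure D3:**
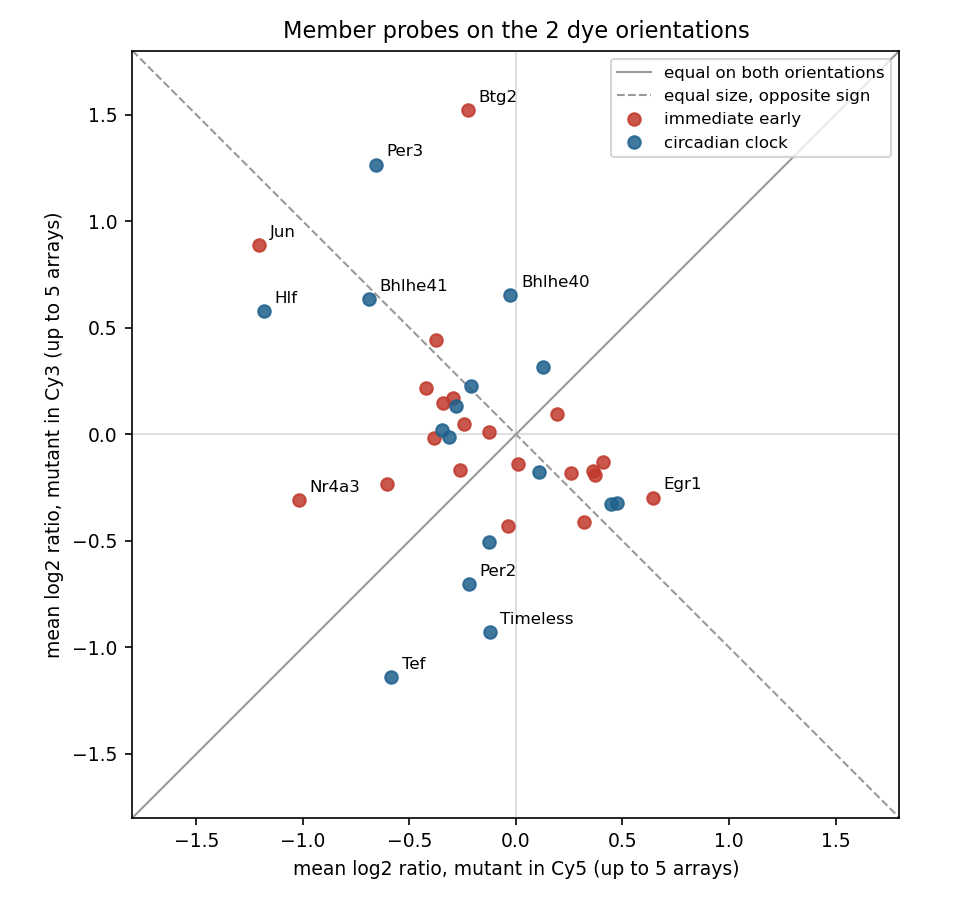
Mean log2 ratio of each tested member probe on the arrays in the Cy5 orientation (x axis) and on those in the Cy3 orientation (y axis), with immediate early probes in red and clock probes in blue. The solid line marks equal values and the dashed line equal size with opposite sign; 25 of the 37 points lie in the quadrants of opposite sign, among them Bhlhe41, Per3 and Egr1.

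Different probes of a gene often disagreed. Of the 8 member genes with several tested probes, Klf6 and Hlf (25%) had pair means of 1 sign on all of them, whereas Rgs2, Ier3, Btg2, Gadd45b, Per2 and Rora did not. Over all 2304 genes with several tested probes, 44.4% had pair means of 1 sign. For the dye term these were Klf6, Gadd45b and Hlf of the 8 (37.5%), against 43.1% of all such genes.

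**Figure D4:**
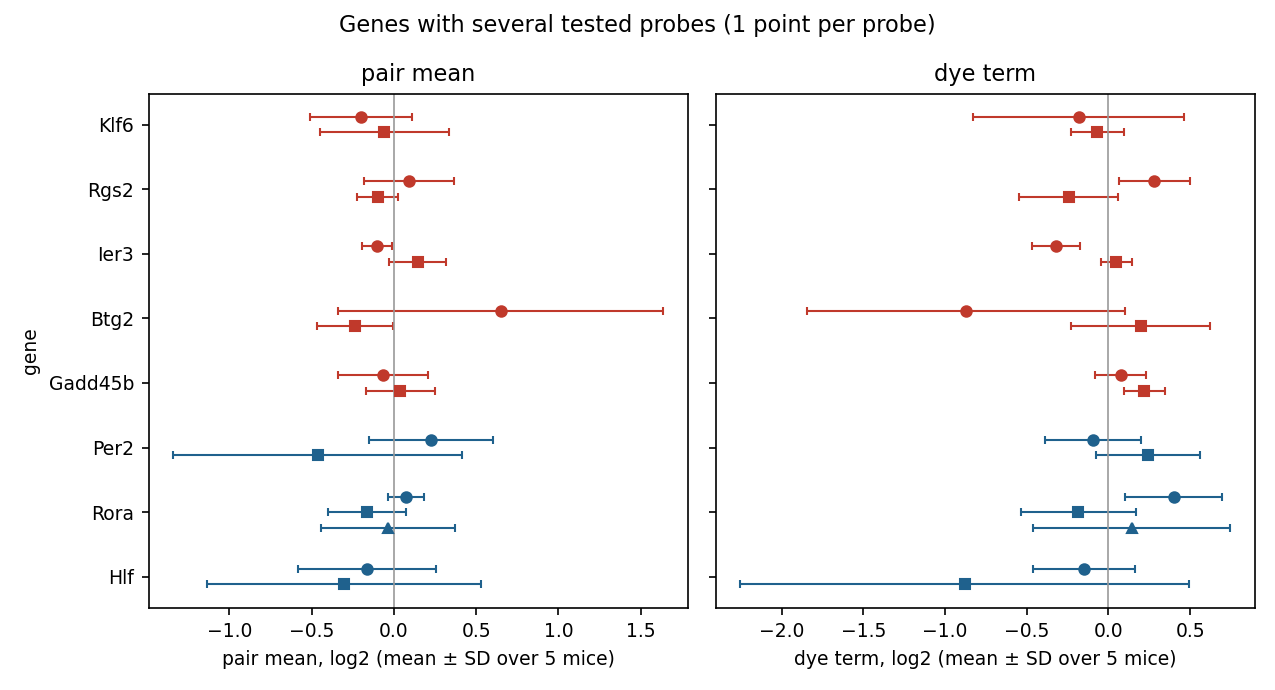
Mean ± SD over 5 mice of the pair mean (left) and the dye term (right), in log2 units on the x axis, for each probe of the 8 member genes with several tested probes (rows, 1 point per probe, red immediate early and blue clock). Most genes have probes on both sides of 0, and the Btg2 probes differ most as pair means, at 0.65 and -0.24.

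Members with and without the TGACG core were also set side by side, with no test. The 13 tested members that hold it had 4 positive and 9 negative pair means with a median of -0.062, and the 11 tested members with a promoter window but without it had 3 positive and 8 negative values and a median of -0.042. Btg2 and Hlf, which share the full element, had pair means on both sides of 0 (Btg2) and below 0 (Hlf) on their 2 probes each.

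Further genes of the same pathways were read from wider lists, under both readings. For the counts below, over all 8711 genes 3883 dye terms lay above 0 and 4828 below (55.4%). The mouse medians of all genes were negative throughout, from -0.066 to -0.0035. Of 45 other activity-regulated genes, 25 were tested. As pair means 12 lay above 0 and 13 below, median -0.0031, and as dye terms 10 above and 15 below, median -0.12, with mouse medians from -0.20 to -0.069. Olfm1, a secreted neuronal glycoprotein, had 0.38 ± 0.31 as pair mean and -0.10 ± 0.45 as dye term (SD, n = 5). Trib2, a pseudokinase, had 0.39 ± 0.44 as pair mean and -0.58 ± 0.25 as dye term (SD, n = 5).

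Of 38 names of CREB, SRF and MEF2 regulators, 15 genes were tested. As pair means 8 lay above 0 and 7 below, median 0.010, and as dye terms 7 above and 8 below, median -0.010. Ppp3r1, the regulatory subunit of calcineurin, had -0.40 ± 0.35 and -0.010 ± 0.65 under these readings (SD, n = 5), and Camkk2, a calmodulin-dependent kinase, -0.27 ± 0.19 and -0.048 ± 0.28 (SD, n = 4). Of 38 other clock regulators and outputs, 15 were tested. As pair means 8 lay above 0 and 7 below, median 0.0042, and as dye terms 5 above and 10 below, median -0.096. Prkaa1, a catalytic subunit of AMP kinase, had -0.35 ± 0.18 as pair mean and 0.63 ± 0.83 as dye term (SD, n = 4). Nono, an RNA-binding partner of PER proteins, had -0.22 ± 0.11 as pair mean and 0.48 ± 0.16 as dye term (SD, n = 5).

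Genes that respond to glucocorticoids, hypoxia or heat were read as further signs of the state of the animals. Of 14 tested glucocorticoid response genes, 6 pair means lay above 0 and 8 below, median -0.013, and 8 dye terms above and 6 below, median 0.056. Hif3a had -1.14 ± 0.50 as pair mean and -0.10 ± 1.04 as dye term, and Sult1a1 had 0.54 ± 0.41 and 0.869 ± 0.997 (SD, n = 4 each). The mouse medians of the hypoxia and heat shock genes kept 1 sign as dye terms but not as pair means. Of 14 tested, 6 pair means lay above 0 and 8 below, median -0.029, with mouse medians from -0.16 to 0.105. As dye terms 9 lay above 0 and 5 below, median 0.23, against -0.051 over all genes. The mouse medians of these dye terms ran from 0.090 to 0.22. Of the hypoxia and heat shock genes, Hif1a had -0.34 ± 0.24 as pair mean and -0.043 ± 0.26 as dye term (SD, n = 5). Hspa1a, an inducible heat shock protein, had -0.43 ± 0.43 and 0.52 ± 0.72 (SD, n = 4). Across the 5 pathway and state lists 0 probes passed as pair means or as dye terms, against 0% of all probes under each reading. The genes named from these lists had a limma adjusted p of 0.911 as pair means, which is the smallest of the array.

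Markers of cell types gave a different order under each reading. As pair means the list medians lay between -0.29 for 5 choroid plexus and ependyma genes and 0.20 for 10 kidney genes, with -0.023 for 13 neuronal genes. The choroid plexus and ependyma median ran from -0.51 to 0.10 over the mice, and as dye term it was -0.063. The kidney median was 0.51 in mouse 3 and between -0.087 and 0.10 in the other mice, and as dye term it was -0.15. As dye terms the list medians lay between -0.31 for 4 cerebellar genes, all below 0, and 0.20 for 7 striatal genes, of which 6 lay above 0. Every mouse median was negative for the cerebellar genes, from -0.43 to -0.092, and positive for the striatal genes, from 0.16 to 0.42. Over all genes 55.4% of dye terms lay below 0, and every mouse median was negative too, from -0.066 to -0.0035. Neuronal genes had a dye-term median of -0.097. As pair means the striatal genes had 1 value above 0 and 6 below, median -0.12, with mouse medians from -0.22 to 0.12. The cerebellar genes had 2 pair means above 0 and 2 below, median -0.050. The part of these lists in the values of the immediate early and clock genes was not tested.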

How the data were processed

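Brain RNA of 5 Cin85-/- mice was compared with 1 wildtype pool on 10 arrays, each mouse once in Cy5 and once in Cy3. Per the labels' protocols, total RNA was reverse transcribed and labelled indirectly. The values deposited by the authors are log2 ratios of 20355 probes. The base is taken from their range, and no label states the scanner, background correction or normalization. Channel intensities were not used here, and precision is limited by how many mice there are and by the single pool. Symbols were taken from GEO's annotation of the platform, parts of which may be outdated: 14030 probes had 1 symbol, 5 several and 6320 none.

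Columns were centred on their medians, the 2 arrays of a mouse were combined, and limma 3.58.1 (lmFit, eBayes; R 4.3.3) tested the mouse values against 0, over all 16939 probes with both arrays in at least 4 mice, with adjustment over all of them. Gene values are means over tested probes. Nothing says how far the spread between mice is biological, apart from their separate identities in the labels. The code was tested on simulated data. The members and lists were chosen with earlier results of these data known. By a fixed rule every tested member is named. Values by mouse are given for selected inducible and clock genes and for probes with an unadjusted p under 0.05. From each pathway or state list, the 2 genes with the smallest p of the pair mean are named. No gene is named from the cell type lists. Columns of values left unused numbered 0. Alternatives were other centring, scaling, filters and fits, capped ratios set to missing, single dye orientations, other probe choices, and mice left out.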

Additional observations from a re-analysis of the deposited data

Results flagged for a closer look

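Of 80 groups of mouse values examined (member probes, class medians and their difference, under both readings), 5 held a mouse far from the others, where chance gives about 1 in 20, or 4. As pair means, mouse 3 had -0.54 on Gadd45b probe 1883, against -0.064 to 0.12 in the others, -2.89 on Dbp, against 0.023 to 0.56, and -0.90 on Hlf probe 17743, against -0.096 to 0.11. As dye terms, mouse 5 had -3.80 on Jun probe 3296, against -0.82 to 0.085, and mouse 3 had -0.60 on Per2 probe 495, against -0.059 to 0.14. Mouse 3 is the animal whose array with the mutant in Cy3 had the fewest values, and its part in these values was not tested.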

How the results depend on the processing

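No paired analysis was possible because the series has 1 group of mutants and a pool. With pair means, or with a single dye orientation in their place, 0 probes passed under each of the 15 alternatives run. Where both orientations were used, 496 to 945 probes had an unadjusted p under 0.05 by the test of that alternative. Single orientations do not separate dye from sample, and gave 5034 with the mutant in Cy5 alone and 2187 with it in Cy3 alone. With dye terms, 0 became 257 after scaling between arrays, 4 without variance moderation, 2054 with 10 arrays and the mouse as a random block, 4312 in that block without the Cy3 array of mouse 3 (added after the data were seen), and 0 to 1 with 1 mouse left out. The within-mouse correlation of the block was -0.02 and -0.076, so its arrays counted as nearly independent. Of members, Bhlhe41 passed after scaling, 4 of 37 in the block of 10 arrays and 11 in that of 9. With the mutant in Cy5 alone, the immediate early and clock medians of the gene means were -0.19 and -0.17. The class difference, here and below, is the mean over mice of the difference between the class medians of a mouse. With the mutant in Cy5 alone it was 0.12, which is not the difference of the medians just given. The clock median was -0.0105 with the most complete probe of a gene; its dye term turned to 0.044 with at least 3 mice required or Nfil3 moved to the clock genes, and was -0.21 with all 5 mice required. Without 1 mouse, pair mean medians were -0.057 to 0.012 (immediate early) and -0.078 to -0.041 (clock), and the class difference was -0.049 to 0.025. Dye term medians were -0.136 to -0.018 (immediate early, the highest without mouse 3) and -0.198 to -0.023 (clock), and the class difference was 0.054 to 0.189. Leaving out 1 mouse changed the sign of 15 of 37 members as pair means and of 8 as dye terms, and moved 34 and 26 by over 1.5 times. The block gives no mouse values, so the class difference was not run there.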
